A study of Mus musculus with 12 samples.

Results

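Conjugation enzymes attach a polar group to drugs, steroids, bilirubin and bile acids, and ATP-binding cassette (ABC) transporters then move the products, along with lipids and sterols, across membranes. The genes described here are those named Ugt (UDP-glucuronosyltransferases, which add glucuronic acid), Gst (glutathione S-transferases), Sult (cytosolic sulfotransferases) and Abca to Abcg. Their symbols were taken by name, and a gene had to reach 1 FPKM (fragments counted per unit of transcript length and of library total) in at least 4 of the 12 libraries. Of 63 entries with such a name among 14499 gene symbols, 59 reached that level and 57 could be tested, 8 Ugt, 14 Gst, 4 Sult and 31 Abc. In the intestine these genes are best known from absorptive enterocytes, where glucuronides, sulfates and glutathione conjugates are made and pumped either back into the lumen or towards the blood. Glucuronidation and sulfation draw on UDP-glucuronic acid and PAPS as donors, and glutathione conjugation on the cell's glutathione pool. Several family members have other work, since Abce1 and the Abcf proteins act in translation and the Abcd proteins carry fatty acids into peroxisomes or cobalamin out of lysosomes.

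The RNA came from Lgr5-GFP+ stem cells sorted from the intestinal epithelium of C57BL/6 mice. The groups were Apc_KO (ApcFlox/Flox), Apc_HET (ApcFlox/+) and Apc_WT (Apc+/+), with 4 libraries each. The labels do not say whether the libraries of a group came from separate or pooled mice, so p-values measure the spread between these samples, which may be technical. Mice of every group carried Lgr5-CreERT2-ires-eGFP, a Cre that tamoxifen switches on in Lgr5-expressing cells, and every group received tamoxifen, once by injection and then in the diet for 5 days, with cells taken on day 15. Sex and age were not given in the sources used here. The comparisons ask what loss of both Apc copies, loss of the second copy, and loss of 1 copy do to these genes in the sorted cells. In the text, values are FPKM in replicates 1 to 4 of a group, in that order.

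Apc itself had 17.3, 12.9, 15.2 and 9.94 FPKM in Apc_KO, 9.81, 10.96, 10.75 and 12.5 FPKM in Apc_HET and 9.97, 6.91, 10.5 and 8.20 FPKM in Apc_WT, and was higher in Apc_KO than in Apc_WT, by 0.58 on the log2 scale (SE 0.17, adjusted p = 0.0142). This gene-level value does not show whether the floxed exon was lost. Lgr5 averaged 41.0 ± 16.8 FPKM in Apc_KO, 26.4 ± 4.52 in Apc_HET and 23.8 ± 4.35 in Apc_WT (SD, n = 4 each), so the sort marker was present in all groups. Markers of other cell types moved with genotype. All 11 measured enterocyte markers were lower in Apc_KO than in Apc_WT, with a summed level of 90.6 to 287 FPKM in Apc_KO, 430 to 1580 FPKM in Apc_HET and 1329 to 3695 FPKM in Apc_WT, and none of the 11 was at 0 in any library. Of 8 goblet markers 7 were lower, with sums of 211 to 482 FPKM in Apc_KO, 1617 to 1805 in Apc_HET and 1489 to 2261 in Apc_WT. Of 9 stem markers 3 were higher and 3 lower in Apc_KO, and their sum was 487 to 1269 FPKM in Apc_KO, 5193 to 8346 in Apc_HET and 5485 to 6299 in Apc_WT. Of that sum Olfm4 averaged 391 FPKM in Apc_KO, 6301 in Apc_HET and 5461 in Apc_WT. All 7 enteroendocrine markers were lower, with sums of 23.3 to 125 FPKM in Apc_KO, 475 to 690.3 in Apc_HET and 275 to 1199 in Apc_WT. Of 4 tested tuft markers 3 were lower, Dclk1, Trpm5 and Pou2f3, and 1 higher, Avil. With the untested Gfi1b, tuft sums were 58.99 to 115 FPKM in Apc_KO, 17.5 to 35.03 in Apc_HET and 24.3 to 30.96 in Apc_WT. In that sum Avil averaged 69.0 FPKM in Apc_KO, 7.4 in Apc_HET and 8.9 in Apc_WT. Of 6 Paneth markers 2 were lower and 1 higher, with sums of 1278 to 6156 FPKM in Apc_KO, 3753 to 6740.0 in Apc_HET and 5442 to 9356 in Apc_WT. Of 6 listed endothelial markers only Cdh5 and Tek had usable values. Together they had 18.1 to 31.8 FPKM in Apc_KO, 0.0746 to 0.258 in Apc_HET and 0.0487 to 0.0826 in Apc_WT. Of the stroma markers Pdgfra and Acta2 were higher and Pdgfrb lower, and the 4 found summed to 12.4 to 41.1 FPKM in Apc_KO, 5.98 to 9.77 in Apc_HET and 2.16 to 7.86 in Apc_WT. The 4 measured leukocyte markers summed to 0.455 to 2.56 FPKM in Apc_KO, 4.24 to 7.17 in Apc_HET and 4.75 to 5.58 in Apc_WT. The part of these markers in the results below was not tested. In such bulk samples, fewer cells of a type and less RNA per cell cannot be told apart.

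In Apc_KO cells the RNA of most conjugation enzymes was lower than in Apc_WT cells, and the ABC transporters were split. Against Apc_WT, 30 of the 57 entries (52.6%) were lower in Apc_KO and 10 (17.5%) were higher, where 17.7% of all 12962 tested genes were lower and 27.9% were higher. The median log2 difference of the 57 was -0.48, beside 0.12 over all genes. Of 8 Ugt entries 7 fell and none rose, and of 4 Sult entries 3 fell and none rose. Of 14 Gst entries 7 fell and 2 rose, and of 31 Abc entries 13 fell and 8 rose. The family medians were -1.52 for Ugt, -0.65 for Gst, -1.27 for Sult and -0.07 for Abc on the log2(FPKM + 1) scale. Under size factors 2993 of all genes were higher and 2721 lower, and under quantile normalization 2764 were higher and 3043 lower, beside 3613 and 2291 as deposited, with the median of all genes moving from 0.12 to -0.02 under the last of these scalings. Every called entry kept its sign under each alternative processing that was run. The level filter bears on these counts. Abcg1 and Abcb1b had no Apc_WT library at 1 FPKM, and Ugt2a3, Ugt2b36, Ugt2b5, the Ugt1a6a entry, Sult1c2 and Abcc8 had no Apc_KO library at 1 FPKM, so these 8 entries, all called, passed the filter through the genotypes where they were high. Their calls in that direction are no support for the counts. Among the 49 entries with a library at 1 FPKM in both genotypes, 24 were lower and 8 higher. This restriction was added after seeing the data. By family, 3 of 4 Ugt, 7 of 14 Gst, 2 of 3 Sult and 12 of 28 Abc entries were lower. The share of all genes under the restriction was not computed, so no background stands beside these counts.

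**Figure D1:**
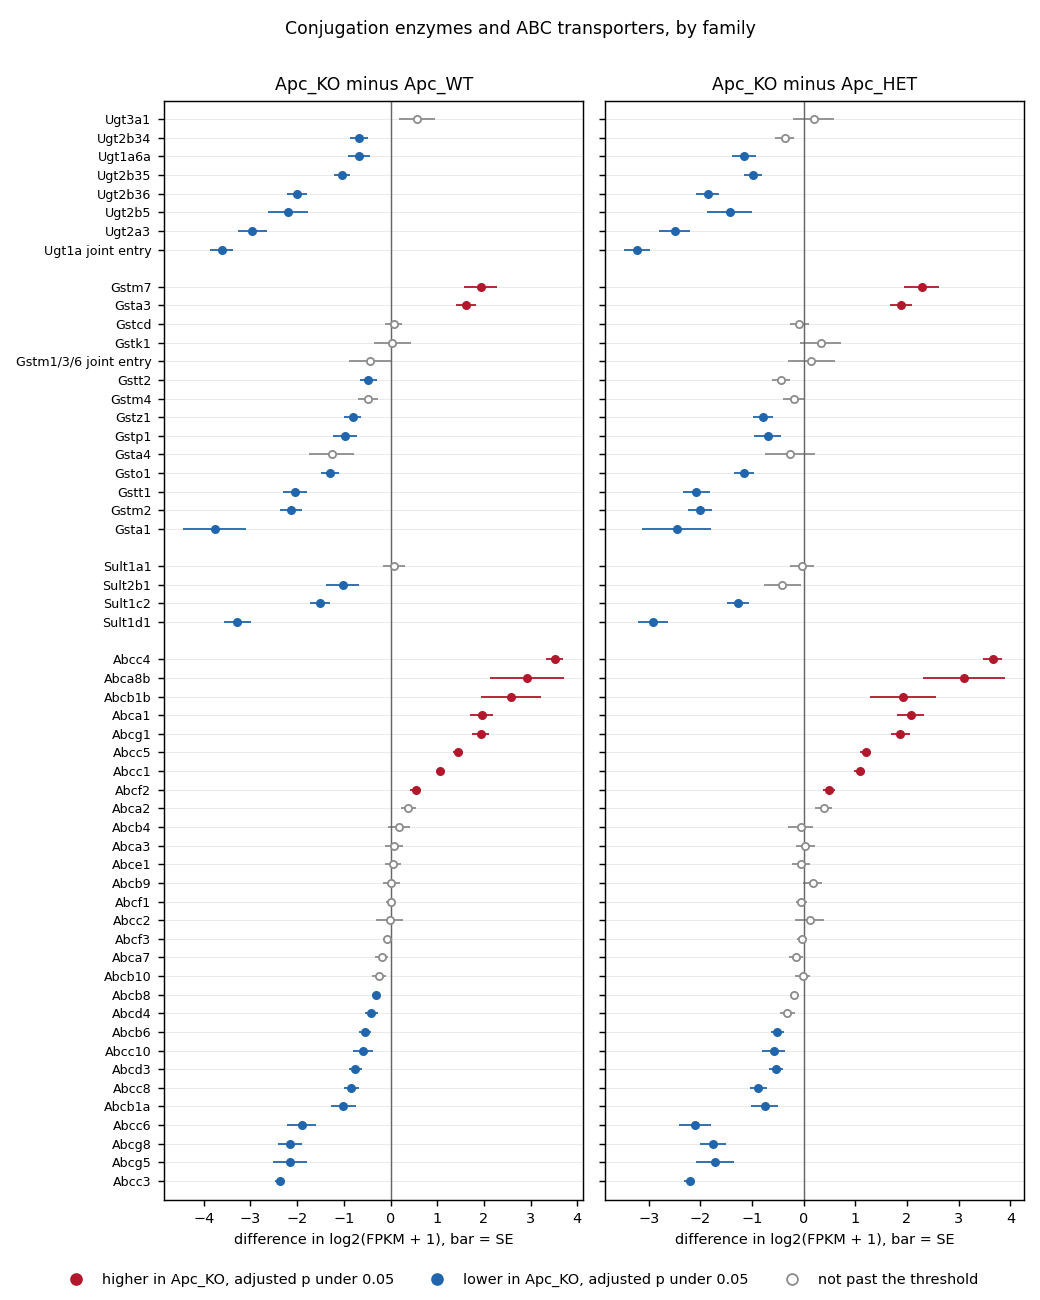
Difference in log2(FPKM + 1) of 55 of the entries, grouped as Ugt, Gst, Sult and Abc from top to bottom, for Apc_KO minus Apc_WT on the left and Apc_KO minus Apc_HET on the right; points are estimates, bars are SE, and filled points passed an adjusted p of 0.05. Against Apc_WT, 10 entries lie to the right and 28 to the left among the filled points, and no Ugt or Sult entry is filled on the right.

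Summed over a family, the Apc_KO and Apc_WT libraries stood apart for Ugt, Gst and Sult and overlapped for Abc. The 8 Ugt entries together had 111, 136, 136 and 107 FPKM in Apc_KO, 320.0, 259, 212 and 375 FPKM in Apc_HET, and 352, 344, 279.6 and 463 FPKM in Apc_WT. The 14 Gst entries had 388, 557, 520.0 and 795 FPKM in Apc_KO, 975, 774, 665 and 1107 FPKM in Apc_HET, and 914, 1048, 902 and 1631 FPKM in Apc_WT. The 4 Sult entries had 9.84, 15.7, 16.4 and 17.1 FPKM in Apc_KO, 62.9, 39.7, 35.0 and 67.7 FPKM in Apc_HET, and 62.7, 61.7, 48.4 and 108 FPKM in Apc_WT. No Apc_KO sum of Ugt or Sult entries reached the lowest sum of the other genotypes, whereas for Gst the sum in Apc_KO replicate 4 lay above those of Apc_HET replicates 2 and 3. The 31 Abc entries summed to 562, 594, 527 and 482 FPKM in Apc_KO, 557, 525, 493 and 609 FPKM in Apc_HET, and 571, 556, 568 and 692 FPKM in Apc_WT, and their ranges overlapped. These sums are descriptions without a test and are dominated by the most abundant entries.

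**Figure D2:**
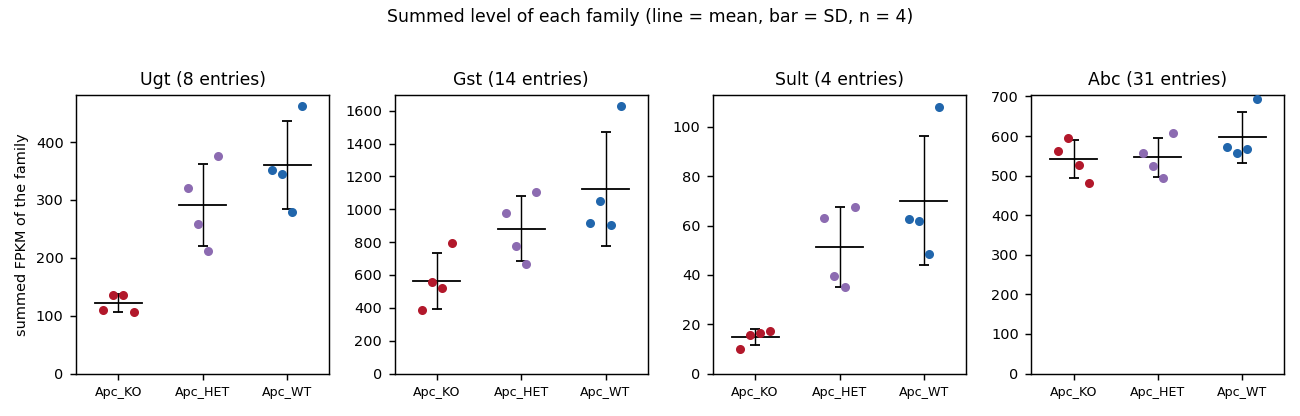
Summed FPKM of each family in the 12 libraries, with Apc_KO left, Apc_HET in the middle and Apc_WT right; points are libraries, lines are means and bars are SD (n = 4). The Ugt sums are 107 to 136 FPKM in Apc_KO against 280 to 463 FPKM in Apc_WT, while the Abc sums of the genotypes overlap.

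Among the glucuronosyltransferases the largest drop on the log2(FPKM + 1) scale was in a joint entry of the Ugt1a cluster. That order depends on the pseudocount: over the alternatives the lowest estimate against Apc_WT was -3.93 for the joint entry, -5.02 for Ugt2a3, -4.85 for Ugt2b5 and -4.14 for Ugt2b36. Genes of this cluster share their later exons and each has its own first exon. Ugt1a1 of this group conjugates bilirubin. The entry is listed under Ugt1a1, Ugt1a6a, Ugt1a7c, Ugt1a8 and Ugt1a9 at chr1:88070803-88071672 (GRCm38), a stretch of 870 bases that the annotation assigns to an exon of Ugt1a9. The entry carries 5 gene names over an exon of 1 gene, so which transcripts it measures is unclear. It had 8.96, 16.7, 15.5 and 11.3 FPKM in Apc_KO, 149, 111, 86.6 and 182 FPKM in Apc_HET, and 164, 159, 133 and 228 FPKM in Apc_WT. The Apc_KO libraries lay below all others, and the log2 difference was -3.62 (SE 0.25, adjusted p = 3.88e-07) against Apc_WT and -3.22 (SE 0.25, adjusted p = 1.1e-06) against Apc_HET. A separate entry listed as Ugt1a6a lies past the annotated end of that gene and is described with the Apc_HET comparison.

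Ugt2a3 (chr5:87317642-87337270), whose human counterpart glucuronidates bile acids, had 0.0347, 0.296, 0.232 and 0.126 FPKM in Apc_KO, 7.03, 4.48, 2.83 and 10.2 FPKM in Apc_HET, and 8.55, 6.93, 5.53 and 12.8 FPKM in Apc_WT. All 4 Apc_KO libraries were below 0.3 FPKM, with no overlap, and the log2 difference was -2.96 (SE 0.31, adjusted p = 8.68e-06) against Apc_WT and -2.50 (SE 0.31, adjusted p = 3.86e-05) against Apc_HET. Ugt2b35 had 15.2, 10.3, 11.6 and 7.55 FPKM in Apc_KO, 23.4, 21.3, 20.8 and 24.6 FPKM in Apc_HET, and 25.8, 23.2, 18.3 and 27.2 FPKM in Apc_WT. Its Apc_KO libraries lay below all others, with a log2 difference of -1.04 (SE 0.18, adjusted p = 0.000497) against Apc_WT and -0.98 (SE 0.18, adjusted p = 0.00083) against Apc_HET. Ugt2b36 averaged 0.128 ± 0.119 FPKM in Apc_KO, 3.15 ± 0.834 FPKM in Apc_HET, and 3.67 ± 1.43 FPKM in Apc_WT (SD, n = 4), and Ugt2b5 averaged 0.0315 ± 0.0277 FPKM in Apc_KO, 2.21 ± 1.87 FPKM in Apc_HET, and 4.26 ± 3.05 FPKM in Apc_WT. Both fell against either genotype. Like Ugt2a3, they had no Apc_KO library at 1 FPKM and passed the level filter through the other genotypes. For Ugt2b5 against Apc_HET the call was lost in limma without Apc_HET replicate 1 or 4 (adjusted p = 0.0619 to 0.0626), without Apc_KO replicates 2 and 3 or 1 and 4 together (adjusted p = 0.0672 to 0.0786) and with array weights (adjusted p = 0.0507). Ugt2b5 shares 41.7% of its 50-base words with other transcripts, mostly those of Ugt2b38, so reads may be split between the copies.

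Ugt2b34 had the highest mean of the Ugt entries over the 12 libraries and in Apc_KO, while the joint Ugt1a entry was higher in Apc_HET and Apc_WT. On the log2(FPKM + 1) scale Ugt2b34 changed least among those that fell. It had 74.2, 96.8, 98.9 and 75.5 FPKM in Apc_KO, 126, 103, 83.4 and 139 FPKM in Apc_HET, and 140.0, 132, 109 and 175 FPKM in Apc_WT. The Apc_KO libraries were below every Apc_WT library but overlapped the Apc_HET libraries. The difference was -0.67 (SE 0.19, adjusted p = 0.0112) against Apc_WT, and that against Apc_HET did not pass, at -0.37 (SE 0.19, adjusted p = 0.139). Without Apc_KO replicates 1 and 4, an alternative chosen after seeing the data, the adjusted p against Apc_WT was 0.0915 in limma. Ugt2b34 held 70.3 ± 2.34% of the summed Ugt FPKM in Apc_KO, 38.9 ± 1.14% in Apc_HET and 38.8 ± 0.83% in Apc_WT. The joint Ugt1a entry held 10.6 ± 1.80% in Apc_KO, 44.7 ± 3.43% in Apc_HET and 47.5 ± 1.36% in Apc_WT (SD, n = 4). Ugt3a1, which in humans uses UDP-N-acetylglucosamine instead of the glucuronic acid donor, did not pass the test at 0.56 (SE 0.39, adjusted p = 0.265), and its locus spans 1.6% of the gene.

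The cytosolic sulfotransferases were few. Sult1d1 (chr5:87553927-87569048), which sulfates catecholamines in mice, had 3.11, 5.07, 4.08 and 2.54 FPKM in Apc_KO, 41.3, 26.9, 23.7 and 49.4 FPKM in Apc_HET, and 45.8, 41.9, 27.8 and 68.5 FPKM in Apc_WT. Its highest Apc_KO value was 5.07 FPKM and its lowest value elsewhere 23.7 FPKM, with a log2 difference of -3.28 (SE 0.29, adjusted p = 2.33e-06) against Apc_WT and -2.92 (SE 0.29, adjusted p = 6.6e-06) against Apc_HET. Sult1c2 averaged 0.393 ± 0.167 FPKM in Apc_KO, 2.40 ± 0.646 FPKM in Apc_HET, and 3.07 ± 1.15 FPKM in Apc_WT (SD, n = 4) and fell against both. It had no Apc_KO library at 1 FPKM and passed the level filter through the other genotypes.

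Sult2b1, a cholesterol and hydroxysteroid sulfotransferase, had 4.03, 9.83, 10.8 and 12.7 FPKM in Apc_KO, 17.6, 9.63, 8.45 and 13.7 FPKM in Apc_HET, and 12.8, 15.8, 17.6 and 33.8 FPKM in Apc_WT. Its Apc_KO libraries lay just under the lowest Apc_WT library and overlapped Apc_HET. On the log2 scale it differed by -1.02 (SE 0.35, adjusted p = 0.0321) against Apc_WT and, not passing, -0.41 (SE 0.35, adjusted p = 0.378) against Apc_HET. The deposited locus of Sult2b1 also covers exons of other genes, among them Fam83e and Spaca4. Against Apc_WT the call was lost in limma without Apc_KO replicate 1 or Apc_WT replicate 3 or 4 (adjusted p = 0.0555 to 0.0961), without Apc_KO replicates 1 and 4 together (adjusted p = 0.0922) and with a fit of the 2 genotypes alone or array weights (adjusted p = 0.0521 to 0.0883). Sult1b1, known for thyroid hormone sulfation, had 0.481, 2.51, 1.37 and 1.54 FPKM in Apc_KO, but its estimate failed in Apc_HET replicates 1 and 4 and Apc_WT replicates 1 and 3. The remaining libraries of Sult1b1 had 11.5 and 7.85 FPKM in Apc_HET and 22.5 and 41.3 FPKM in Apc_WT, and the gene was not tested. Sult1a1 averaged 1.34 ± 0.9 FPKM in Apc_KO, 1.27 ± 0.217 FPKM in Apc_HET, and 1.12 ± 0.28 FPKM in Apc_WT and did not pass.

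Glutathione S-transferases moved in opposite directions within single classes. Gsta1 (chr9:78230604-78272226), an alpha-class enzyme, had 1.76, 14.1, 4.55 and 7.10 FPKM in Apc_KO, 68.0, 22.4, 12.7 and 77.2 FPKM in Apc_HET, and 55.5, 70.4, 61.5 and 256 FPKM in Apc_WT. Apc_WT replicate 4 stood far above the other Apc_WT libraries, and Apc_KO replicate 2 overlapped Apc_HET replicate 3. The estimate was -3.77 (SE 0.67, adjusted p = 0.000643) against Apc_WT and -2.46 (SE 0.67, adjusted p = 0.0111) against Apc_HET. Of its 50-base words 89.7% occur in other transcripts, most in Gm3776, so its reads may be split with near-identical copies. Against Apc_HET the call was lost without Apc_KO replicates 1 and 4, at an adjusted p of 0.0771 in limma, an alternative added after seeing the data.

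Gsta3 (chr1:21240601-21265296), the alpha-class enzyme that inactivates aflatoxin epoxide in mice, went the other way. It had 6.43, 7.21, 7.74 and 6.26 FPKM in Apc_KO, 1.41, 1.14, 0.496 and 1.65 FPKM in Apc_HET, and 1.08, 1.38, 1.39 and 2.77 FPKM in Apc_WT. Every Apc_KO library exceeded every other library, with a log2 difference of 1.61 (SE 0.21, adjusted p = 5.84e-05) against Apc_WT and 1.89 (SE 0.21, adjusted p = 1.8e-05) against Apc_HET. Gsta4, the alpha-class enzyme for the lipid peroxidation product 4-hydroxynonenal, had 12.8, 19.9, 13.9 and 42.4 FPKM in Apc_KO, 37.6, 17.2, 12.1 and 41.0 FPKM in Apc_HET, and 29.9, 40.2, 44.2 and 105 FPKM in Apc_WT. The groups overlapped and neither comparison passed, at -1.26 (SE 0.48, adjusted p = 0.0509) against Apc_WT and -0.26 (SE 0.48, adjusted p = 0.698) against Apc_HET. Against Apc_WT Gsta4 passed in limma with a replicate block (adjusted p = 0.0088) and in 7 other alternatives.

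In the mu class, Gstm7 (chr3:107924964-107931857) had 32.9, 15.98, 14.02 and 52.2 FPKM in Apc_KO, 4.77, 4.22, 3.06 and 5.71 FPKM in Apc_HET, and 5.37, 6.10, 4.62 and 7.63 FPKM in Apc_WT. The Apc_KO libraries were above all others and spread widely, with replicates 1 and 4 highest. The difference was 1.93 (SE 0.34, adjusted p = 0.000646) against Apc_WT and 2.28 (SE 0.34, adjusted p = 0.0002) against Apc_HET. Gstm2 had 4.44, 10.1, 8.90 and 9.32 FPKM in Apc_KO, 43.2, 29.2, 28.3 and 41.3 FPKM in Apc_HET, and 39.2, 39.1, 28.1 and 47.2 FPKM in Apc_WT. It fell without overlap, with a log2 difference of -2.13 (SE 0.24, adjusted p = 1.66e-05) against Apc_WT and -2.01 (SE 0.24, adjusted p = 2.89e-05) against Apc_HET. The deposited locus of Gstm2 also covers exons of Gstm1 and Gstm3, while the joint entry Gstm1, Gstm3 and Gstm6 is listed over exons of Gstm6 alone, so how reads were divided among these genes is unclear. That joint entry was the most abundant of all 57 in Apc_KO, at 177 ± 71.4 FPKM in Apc_KO, 175 ± 105 FPKM in Apc_HET, and 253 ± 145 FPKM in Apc_WT (SD, n = 4), and did not pass the test against either genotype.

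Gsto1 (chr19:47854928-47877416), an omega-class enzyme that reduces dehydroascorbate and mixed disulfides, was the most abundant entry in Apc_HET and Apc_WT. It had 102, 175, 164 and 209 FPKM in Apc_KO, 363, 356, 324 and 370.5 FPKM in Apc_HET, and 359, 394, 380.5 and 422 FPKM in Apc_WT. The Apc_KO libraries were lowest throughout, with a log2 difference of -1.30 (SE 0.19, adjusted p = 0.00016) against Apc_WT and -1.16 (SE 0.19, adjusted p = 0.000421) against Apc_HET. The deposited locus of Gsto1 also covers exons of Gsto2, so how reads were divided between these genes is unclear. Gstt1, a theta-class enzyme for small halogenated compounds, had 4.68, 11.1, 9.57 and 9.01 FPKM in Apc_KO, 44.4, 31.6, 36.7 and 40.8 FPKM in Apc_HET, and 30.1, 40.3, 27.5 and 57.3 FPKM in Apc_WT. Again the Apc_KO libraries lay below all others, with a log2 difference of -2.05 (SE 0.26, adjusted p = 4.12e-05) against Apc_WT and -2.08 (SE 0.26, adjusted p = 4.07e-05) against Apc_HET.

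Gstz1, the isomerase of tyrosine breakdown, had 10.8, 17.4, 15.2 and 23.8 FPKM in Apc_KO, 29.4, 27.7, 26.7 and 31.3 FPKM in Apc_HET, and 28.7, 29.3, 25.0 and 34.2 FPKM in Apc_WT. All Apc_KO values lay below all others, and the log2 difference was -0.81 (SE 0.18, adjusted p = 0.00351) against Apc_WT and -0.79 (SE 0.18, adjusted p = 0.00459) against Apc_HET. Gstp1, the pi-class enzyme, averaged 79.5 ± 27.9 FPKM in Apc_KO, 122 ± 13.3 FPKM in Apc_HET, and 148 ± 20.7 FPKM in Apc_WT (SD, n = 4) and fell. Against Apc_HET the call was lost in limma without any of the 4 Apc_HET libraries or any of the 4 Apc_WT libraries (adjusted p = 0.0511 to 0.102) and with a fit of the 2 genotypes alone (adjusted p = 0.0889). Of its 50-base words 62.3% also occur in Gstp2. Gstt2 was lower against Apc_WT at -0.48 (SE 0.18, adjusted p = 0.0475), with a locus covering 61% of the gene, and the call was lost in limma without Apc_KO replicate 1 or 2 or 3 or any of the 4 Apc_HET libraries or Apc_WT replicate 2 or 3 or 4 (adjusted p = 0.0607 to 0.141), without Apc_KO replicates 2 and 3 together (adjusted p = 0.29) and with a fit of the 2 genotypes alone (adjusted p = 0.108). Gstm4 did not pass against Apc_WT, at -0.48 (SE 0.22, adjusted p = 0.0877), nor did Gstk1, at 0.03 (SE 0.40, adjusted p = 0.953), or Gstcd, at 0.07 (SE 0.18, adjusted p = 0.797).

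**Figure D3:**
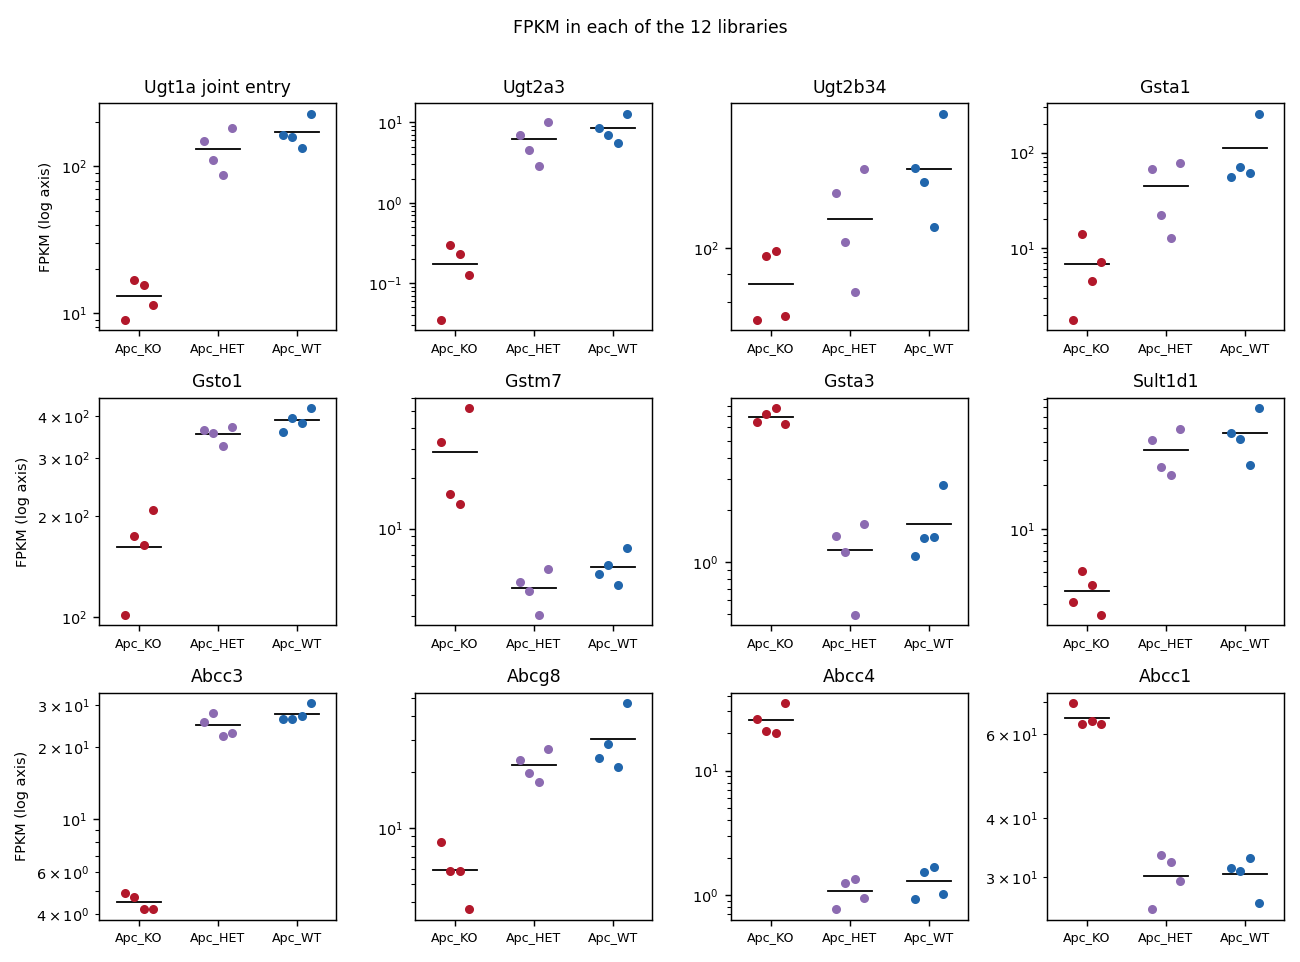
FPKM of 12 entries in each library on log axes, Apc_KO left, Apc_HET in the middle and Apc_WT right; points are libraries and lines are arithmetic means of 4. Gstm7, Gsta3, Abcc4 and Abcc1 have all 4 Apc_KO points above all others, and the Ugt1a joint entry, Ugt2a3, Gsto1, Sult1d1, Abcc3 and Abcg8 have them below all others.

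The Abcc transporters, the multidrug resistance proteins that export conjugates, were divided. Abcc4 (chr14:118482691-118707101), an exporter of cyclic nucleotides and prostaglandins, showed the largest gain of any tested entry on the log2(FPKM + 1) scale. With a smaller pseudocount Abcb1b, described below, passed it against Apc_WT, with highest estimates over the alternatives of 4.35 for Abcb1b and 4.22 for Abcc4. Abcc4 had 26.2, 20.8, 20.3 and 35.1 FPKM in Apc_KO, 0.767, 1.25, 1.34 and 0.939 FPKM in Apc_HET, and 0.932, 1.52, 1.67 and 1.02 FPKM in Apc_WT. The lowest Apc_KO library was 20.3 FPKM and the highest other library 1.67 FPKM, with a log2 difference of 3.52 (SE 0.19, adjusted p = 4.47e-08) against Apc_WT and 3.66 (SE 0.19, adjusted p = 3.53e-08) against Apc_HET. Abcc1 (chr16:14361545-14478146), the basolateral exporter of glutathione conjugates, had 69.7, 62.9, 63.7 and 62.9 FPKM in Apc_KO, 25.7, 33.4, 32.3 and 29.5 FPKM in Apc_HET, and 31.3, 30.97, 32.9 and 26.5 FPKM in Apc_WT. Its Apc_KO values were tightly grouped above the rest, with a log2 difference of 1.07 (SE 0.10, adjusted p = 4.81e-06) against Apc_WT and 1.08 (SE 0.10, adjusted p = 4.85e-06) against Apc_HET. Abcc5, also an exporter of cyclic nucleotides, had 15.4, 15.0, 13.7 and 14.5 FPKM in Apc_KO, 5.95, 5.42, 6.45 and 5.42 FPKM in Apc_HET, and 5.71, 4.30, 4.14 and 4.88 FPKM in Apc_WT. It rose without overlap, with a log2 difference of 1.45 (SE 0.11, adjusted p = 6.71e-07) against Apc_WT and 1.20 (SE 0.11, adjusted p = 3.41e-06) against Apc_HET.

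Abcc3 (chr11:94343109-94393014), the basolateral exporter of glucuronides and bile acids, moved the opposite way. It had 4.92, 4.70, 4.22 and 4.19 FPKM in Apc_KO, 25.5, 27.6, 22.3 and 22.9 FPKM in Apc_HET, and 26.1, 26.0, 27.0 and 30.5 FPKM in Apc_WT. No Apc_KO library exceeded 4.92 FPKM and no other library was under 22.3 FPKM. On the log2 scale it differed by -2.37 (SE 0.10, adjusted p = 9.36e-09) against Apc_WT and -2.21 (SE 0.10, adjusted p = 1.6e-08) against Apc_HET. Abcc6, known from pseudoxanthoma elasticum in humans, had 3.38, 0.776, 1.19 and 1.94 FPKM in Apc_KO, 15.3, 9.95, 11.1 and 7.15 FPKM in Apc_HET, and 8.47, 10.2, 5.53 and 13.0 FPKM in Apc_WT. It fell without overlap, with a log2 difference of -1.90 (SE 0.31, adjusted p = 0.00032) against Apc_WT and -2.11 (SE 0.31, adjusted p = 0.000155) against Apc_HET. Abcc2 (chr19:43782194-43841049), the apical exporter of glucuronides and glutathione conjugates, had 56.3, 39.7, 48.9 and 25.6 FPKM in Apc_KO, 44.4, 32.9, 25.2 and 55.0 FPKM in Apc_HET, and 45.7, 35.8, 31.3 and 58.0 FPKM in Apc_WT. Its groups overlapped and neither comparison passed, at -0.02 (SE 0.28, adjusted p = 0.961) against Apc_WT and 0.11 (SE 0.28, adjusted p = 0.78) against Apc_HET.

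Abcc8, the sulfonylurea receptor of potassium channels, was at or below 1.81 FPKM in all libraries and fell. It had no Apc_KO library at 1 FPKM and passed the level filter through the other genotypes. Abcc10 fell, at -0.59 (SE 0.22, adjusted p = 0.0442) against Apc_WT and -0.58 (SE 0.22, adjusted p = 0.0489) against Apc_HET. Against Apc_WT the call was lost in limma without Apc_KO replicate 2 or 3 or any of the 4 Apc_HET libraries or any of the 4 Apc_WT libraries (adjusted p = 0.0555 to 0.101), without Apc_KO replicates 2 and 3 together (adjusted p = 0.328) and with a fit of the 2 genotypes alone (adjusted p = 0.0955), and against Apc_HET the call was lost in limma without Apc_KO replicate 2 or 3 or any of the 4 Apc_HET libraries or any of the 4 Apc_WT libraries (adjusted p = 0.0603 to 0.115), without Apc_KO replicates 2 and 3 together (adjusted p = 0.346) and with a pseudocount 0.1 or a replicate block or a fit of the 2 genotypes alone (adjusted p = 0.0508 to 0.105). Within the summed FPKM of the 8 Abcc entries, Abcc1 held 39.4 ± 2.08% in Apc_KO, 23.6 ± 4.07% in Apc_HET and 23.2 ± 4.38% in Apc_WT. Abcc4 held 15.6 ± 4.32% in Apc_KO, 0.844 ± 0.27% in Apc_HET and 0.993 ± 0.375% in Apc_WT. Abcc3 held 2.74 ± 0.26% in Apc_KO, 19.1 ± 1.90% in Apc_HET and 20.7 ± 1.52% in Apc_WT (SD, n = 4). The Abcc sum itself was 165 ± 16.8 FPKM in Apc_KO, 129 ± 10.1 in Apc_HET and 133 ± 15.3 in Apc_WT.

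**Figure D4:**
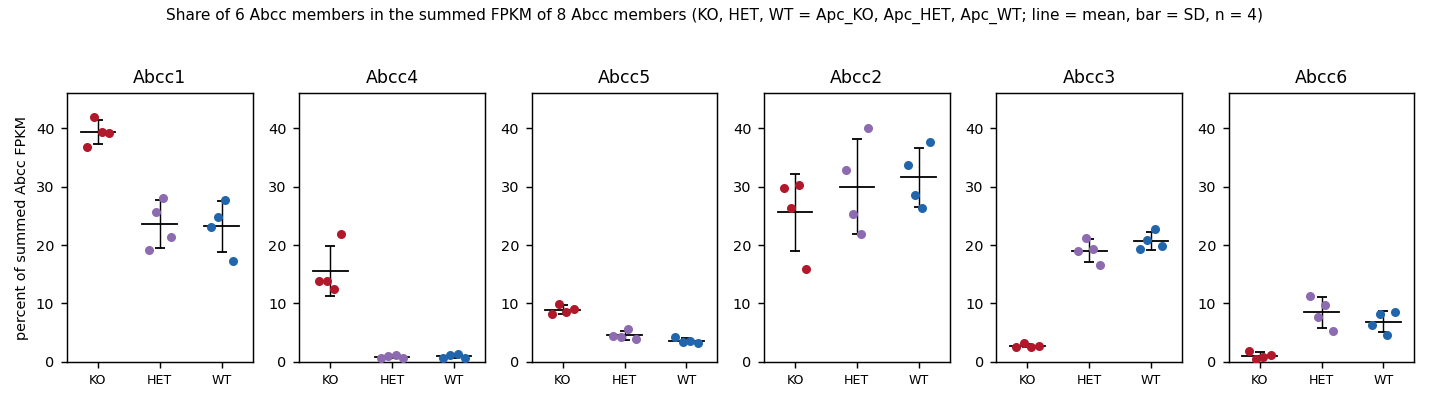
Percent of the summed FPKM of 8 Abcc entries that 6 of them held, in Apc_KO, Apc_HET and Apc_WT from left to right; points are libraries, lines are means and bars are SD (n = 4). Abcc4 holds 12.5 to 22.0% in Apc_KO and at most 1.41% elsewhere, and Abcc3 holds at most 3.13% in Apc_KO and at least 16.7% elsewhere.

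Sterol transporters also split. Abcg5 and Abcg8 form the pair that returns plant sterols and cholesterol to the lumen, and both are listed under the same joint locus (chr17:84657423-84700340). Abcg5 had 30.2, 12.9, 15.1 and 7.18 FPKM in Apc_KO, 53.2, 39.2, 42.5 and 69.1 FPKM in Apc_HET, and 58.8, 68.4, 47.3 and 112 FPKM in Apc_WT. Abcg8 had 8.41, 5.86, 5.87 and 3.64 FPKM in Apc_KO, 23.4, 19.7, 17.7 and 26.6 FPKM in Apc_HET, and 23.7, 28.4, 21.4 and 47.3 FPKM in Apc_WT. Both were lower in every Apc_KO library than in any other. Abcg5 had a log2 difference of -2.16 (SE 0.37, adjusted p = 0.00045) against Apc_WT and -1.72 (SE 0.37, adjusted p = 0.00253) against Apc_HET, and Abcg8 of -2.15 (SE 0.26, adjusted p = 2.66e-05) and -1.75 (SE 0.26, adjusted p = 0.000154) in the same comparisons.

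Abca1 and Abcg1, which load cholesterol onto high-density lipoprotein, rose, with mean levels under 1 FPKM in both other genotypes. Abca1 (chr4:53030817-53159923) had 10.7, 3.94, 5.97 and 4.21 FPKM in Apc_KO, 0.606, 0.697, 0.661 and 0.49 FPKM in Apc_HET, and 0.889, 0.529, 0.392 and 1.35 FPKM in Apc_WT. Abcg1 (chr17:31057701-31117284) had 4.04, 2.60, 4.46 and 4.48 FPKM in Apc_KO, 0.257, 0.328, 0.269 and 0.431 FPKM in Apc_HET, and 0.164, 0.158, 0.122 and 0.728 FPKM in Apc_WT. Neither gene's Apc_KO values overlapped the others. The log2 difference of Abca1 was 1.95 (SE 0.26, adjusted p = 5.84e-05) against Apc_WT and 2.07 (SE 0.26, adjusted p = 4.04e-05) against Apc_HET. That of Abcg1 was 1.93 (SE 0.18, adjusted p = 3.91e-06) against Apc_WT and 1.87 (SE 0.18, adjusted p = 5.49e-06) against Apc_HET. Abcg1 reached 1 FPKM in Apc_KO libraries only, so it passed the level filter through the genotype where it was high. Abca1 had no Apc_HET library at 1 FPKM. The calls of Abcg1, and that of Abca1 against Apc_HET, are therefore no support for a split.

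The P-glycoprotein genes Abcb1a and Abcb1b, drug efflux pumps of the apical membrane, differed from each other. Abcb1a had 6.35, 14.6, 8.78 and 7.17 FPKM in Apc_KO, 16.9, 13.5, 11.9 and 21.2 FPKM in Apc_HET, and 19.8, 12.2, 19.7 and 25.8 FPKM in Apc_WT. Apc_KO replicate 2 lay within the range of the other genotypes. The estimate was -1.01 (SE 0.27, adjusted p = 0.00827) against Apc_WT and -0.76 (SE 0.27, adjusted p = 0.0392) against Apc_HET. Against Apc_WT the call was lost in limma without Apc_KO replicates 1 and 4 together (adjusted p = 0.0914) and with array weights or the top locus alone (adjusted p = 0.0642 to 0.102), and against Apc_HET the call was lost in limma without Apc_KO replicate 1 or 3 or 4 or Apc_HET replicate 1 or 2 or 4 or Apc_WT replicate 1 or 3 (adjusted p = 0.0511 to 0.114), without Apc_KO replicates 1 and 4 together (adjusted p = 0.291) and with a replicate block or array weights or the top locus alone (adjusted p = 0.0673 to 0.21). The Abcb1a locus spans 48.8% of the gene.

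Abcb1b had 7.69, 27.9, 3.50 and 2.15 FPKM in Apc_KO, 0.144, 0.684, 4.68 and 0.568 FPKM in Apc_HET, and 0.151, 0.41, 0.704 and 0 FPKM in Apc_WT. Apc_KO replicate 2 was highest, and Apc_HET replicate 3 lay above Apc_KO replicates 3 and 4. No Apc_WT library reached 1 FPKM, so Abcb1b passed the level filter through the other genotypes. The difference was 2.58 (SE 0.63, adjusted p = 0.0053) against Apc_WT and 1.92 (SE 0.63, adjusted p = 0.0286) against Apc_HET. Against Apc_HET the call was lost in limma without Apc_KO replicate 1 or 2 or Apc_HET replicate 1 or 2 or 4 (adjusted p = 0.0572 to 0.0832), without Apc_KO replicates 2 and 3 together (adjusted p = 0.0907) and with a fit of the 2 genotypes alone (adjusted p = 0.0672). Its locus is 582 bases long, 0.9% of the gene, holds 136 exon bases of Abcb1b and overlaps an exon of Gm5106, so the value says little of the full transcript. Abca8b, a lipid transporter, is listed over 2% of its gene. It had 30.1, 63.0, 10.4 and 14.7 FPKM in Apc_KO, 0.81, 0.299, 4.56 and 3.86 FPKM in Apc_HET, and 8.42, 0.221, 0.197 and 6.55 FPKM in Apc_WT. The Apc_KO libraries were above the others, with a log2 difference of 2.93 (SE 0.79, adjusted p = 0.00934) against Apc_WT and 3.11 (SE 0.79, adjusted p = 0.00742) against Apc_HET. A further count left out entries whose loci cover under 80% of the annotated gene. It also left out the joint Ugt1a and Gstm entries, which have no single annotated gene, and of these the Ugt1a entry was called lower. Of the 46 entries kept, 8 were higher and 26 lower against Apc_WT. The share of all genes with such loci left out was not computed.

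Abcg2, the breast cancer resistance protein, could not be tested because its main locus failed in Apc_WT replicates 1, 3 and 4 and in all 4 Apc_HET libraries. It had 2.14, 7.54, 6.62 and 2.89 FPKM in Apc_KO, and 32.5 FPKM in Apc_WT replicate 2, the other library with an estimate. Abca13 was listed at 24.6, 1.08, 0.0445 and 10.9 FPKM in Apc_KO and at 0 in all 8 other libraries. It reached 1 FPKM in only 3 libraries and was not tested. Its locus spans 1% of the gene and holds 391 of its exon bases, so the value says little of the full transcript. Abcc12, Gstm5 and Sult6b1 also fell short of the level filter.

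Among the organelle transporters, Abcd3, a peroxisomal carrier of fatty acyl groups, had the highest mean of all Abc entries over the 12 libraries, although Abcc1, Abce1 and Abcc2 were above it in Apc_KO. It had 43.7, 44.9, 44.6 and 36.8 FPKM in Apc_KO, 63.4, 54.9, 51.8 and 80.01 FPKM in Apc_HET, and 72.5, 67.7, 67.2 and 83.1 FPKM in Apc_WT. The Apc_KO libraries were lowest, with a log2 difference of -0.76 (SE 0.14, adjusted p = 0.000738) against Apc_WT and -0.53 (SE 0.14, adjusted p = 0.00843) against Apc_HET. The cobalamin carrier Abcd4 and the mitochondrial carriers Abcb6 and Abcb8 fell against Apc_WT, at -0.41 (SE 0.14, adjusted p = 0.0334), -0.55 (SE 0.12, adjusted p = 0.00292) and -0.31 (SE 0.09, adjusted p = 0.0125) in that order. Abcb6 shares 90.3% of its 50-base words with a readthrough transcript, Gm29253. For Abcd4 against Apc_WT the call was lost in limma without Apc_KO replicate 1 or 2 or 3 or Apc_WT replicate 2 or 4 (adjusted p = 0.0534 to 0.0992), without Apc_KO replicates 2 and 3 together (adjusted p = 0.252) and with a fit of the 2 genotypes alone (adjusted p = 0.0824). For Abcb8 the call was lost in limma without Apc_KO replicates 2 and 3 together (adjusted p = 0.0522) and with a fit of the 2 genotypes alone (adjusted p = 0.0529). Of the translation factors, Abcf2 rose, at 0.54 (SE 0.12, adjusted p = 0.00277) against Apc_WT, while Abce1, at 0.06 (SE 0.17, adjusted p = 0.805), Abcf1, at 0.01 (SE 0.11, adjusted p = 0.962), and Abcf3, at -0.07 (SE 0.10, adjusted p = 0.601), did not pass. Abca2, Abca3, Abca7, Abcb4, Abcb9 and Abcb10 did not pass either, with log2 estimates between -0.25 and 0.38. The locus listed for Abcb4 lies 1802 bases past the annotated end of that gene and holds 0 of its exon bases, so its value is no measure of Abcb4.

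Loss of the second copy was read from Apc_KO against Apc_HET, which uses the same Apc_KO libraries as the comparison above and is not independent of it. Against Apc_HET, 25 of the 57 entries (43.9%) were lower in Apc_KO and 10 (17.5%) were higher, where 18.9% of all tested genes were lower and 22.8% were higher. The median log2 difference of the 57 was -0.32, beside 0.04 over all genes. Of the Ugt entries 6 fell, of the Gst entries 6 fell and 2 rose, of the Sult entries 2 fell, and of the Abc entries 11 fell and 8 rose. Abca1 and Abcg1 had no Apc_HET library at 1 FPKM. Ugt2a3, Ugt2b36, Ugt2b5, the Ugt1a6a entry, Sult1c2 and Abcc8 had no Apc_KO library at 1 FPKM. All of these were called after passing the filter through genotypes where they were high, so their calls in that direction are no support for the counts. Among the 49 entries with a library at 1 FPKM in both of these genotypes, 19 were lower and 8 higher. The share of all genes under that restriction was not computed here either. Ugt2b34, Sult2b1, Gstt2, Abcd4 and Abcb8 were called against Apc_WT and not here, and whether the comparisons differ for them was not tested.

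Loss of 1 copy gave no call. For Apc_HET against Apc_WT, 0 of 57 entries passed an adjusted p of 0.05 in limma, where 0% of all tested genes did. At an unadjusted p under 0.05 there was 1 entry of 57, Abcc5, and 561 of 12962 genes. The smallest unadjusted p among positive differences belonged to Abcc5, at 0.25 (SE 0.11, adjusted p = 0.987 in limma), with Apc_HET values of 5.42 to 6.45 FPKM and Apc_WT values of 4.14 to 5.71 FPKM. The next was the Ugt1a6a entry, which had 0.187, 0.346, 0.798 and 0.142 FPKM in Apc_KO, 2.65, 1.58, 1.32 and 2.79 FPKM in Apc_HET, and 1.40, 0.478, 1.41 and 1.497 FPKM in Apc_WT. It differed by 0.49 (SE 0.23, adjusted p = 0.987 in limma), and the groups overlapped. Its loci lie 1179 and 2531 bases past the annotated end of Ugt1a6a and hold 0 of its exon bases, so the value is no measure of that gene. The entry fell in Apc_KO, at -0.68 (SE 0.23, adjusted p = 0.0309) against Apc_WT and -1.16 (SE 0.23, adjusted p = 0.00155) against Apc_HET. Against Apc_WT the call was lost in limma without Apc_KO replicate 1 or 2 or 4 or Apc_WT replicate 1 or 3 or 4 (adjusted p = 0.0548 to 0.0815), without Apc_KO replicates 1 and 4 together (adjusted p = 0.188) and with array weights (adjusted p = 0.172). Among negative differences, Gsta4 came first at -0.998 (SE 0.48) and Gsta1 next at -1.31 (SE 0.67) (adjusted p = 0.987 each in limma). The median difference of the 57 was -0.12, beside 0.07 over all genes.

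Enterocyte marker sums and the levels of several entries are given side by side. In Apc_KO replicates 1 to 4 the enterocyte markers summed to 90.6, 287, 153 and 283 FPKM, where Sult1d1 read 3.11, 5.07, 4.08 and 2.54 FPKM and Abcg5 read 30.2, 12.9, 15.1 and 7.18 FPKM. Abcg5 was highest in the Apc_KO library with the lowest marker sum. Gsta1 read 1.76, 14.1, 4.55 and 7.10 FPKM in the same libraries, lowest and highest where the marker sum was. A link of these entries with the markers was not tested. In Apc_HET replicates 2 and 3 the enterocyte markers summed to 617 and 430 FPKM and Gsta1 read 22.4 and 12.7 FPKM. In Apc_HET replicates 1 and 4 the marker sums were 1317 and 1580 FPKM and Gsta1 read 68.0 and 77.2 FPKM. Apc_WT replicate 4, with a marker sum of 3695 FPKM, was also the highest for Gsta1, Sult1d1, Abcg5 and Gsta4. Abcc3 stayed between 22.3 and 30.5 FPKM over the same 8 Apc_HET and Apc_WT libraries. Abcc1 was 25.7 to 33.4 FPKM in those 8 libraries. With 4 libraries per genotype and genotypes that stand apart, no correlation was computed.

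**Figure D5:**
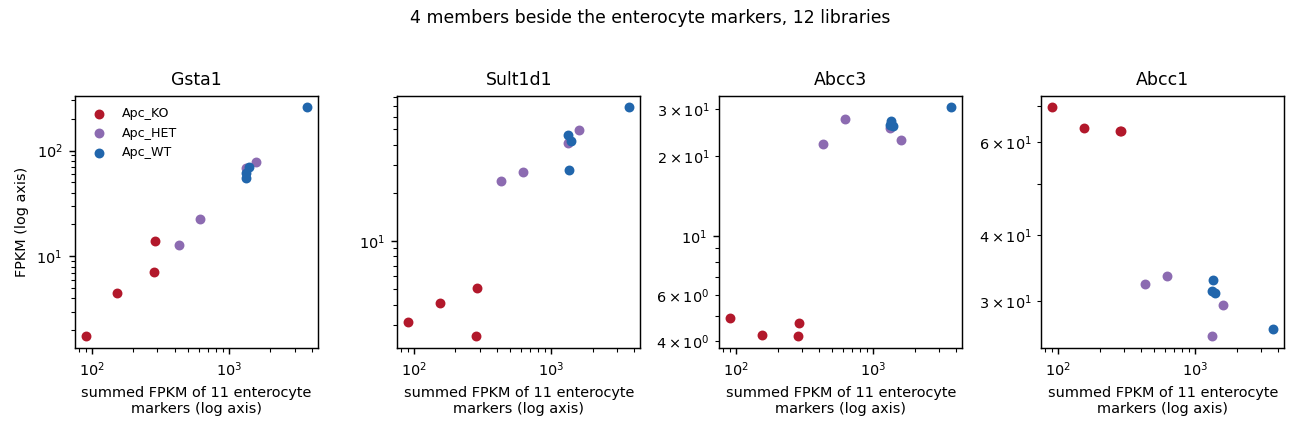
FPKM of Gsta1, Sult1d1, Abcc3 and Abcc1 against the summed FPKM of 11 enterocyte markers in the 12 libraries, log axes, coloured by genotype with Apc_KO first in the legend. The marker sums run from 90.6 FPKM in an Apc_KO library to 3695 FPKM in an Apc_WT library, and Abcc3 stays at 22.3 to 30.5 FPKM in all Apc_HET and Apc_WT libraries.

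Because several entries moved together, the annotated start sites were searched for 4 short motifs. Windows from RefSeq on GRCm38.p6, 250 bases before to 50 after a start site, were at hand for 51 member genes in 64 windows. The antioxidant response element core TGACNNNGC, the site class bound by NRF2, occurred in 9 of 64 windows (14.1%), beside 12.4% of 32851 windows genome-wide. The aryl hydrocarbon receptor core GCGTG occurred in 18 (28.1%), beside 32.4%. The HNF4 motif CAAAGTCCA occurred in 1, at Abcd3, beside 0.5%, and the TCF/LEF core ATCAAAG in 0, beside 3.7%. Both strands were searched, and no motif overlapped another in the windows printed. Of the entries that rose, the windows of Abcc4, Gsta3 and Gstm7 with the antioxidant core are shown with 2 entries that fell and lack it, Sult1d1 and Gsta1. These windows were picked by direction and core, and a link between core and direction was not tested. Capitals mark the antioxidant core in the first 3 and the aryl hydrocarbon receptor core in Abcc4, Sult1d1 and Gsta1, on either strand. The sequences are written 5′ to 3′ on the gene's strand.
Abcc4, chr14:118706170-118706469, minus strand: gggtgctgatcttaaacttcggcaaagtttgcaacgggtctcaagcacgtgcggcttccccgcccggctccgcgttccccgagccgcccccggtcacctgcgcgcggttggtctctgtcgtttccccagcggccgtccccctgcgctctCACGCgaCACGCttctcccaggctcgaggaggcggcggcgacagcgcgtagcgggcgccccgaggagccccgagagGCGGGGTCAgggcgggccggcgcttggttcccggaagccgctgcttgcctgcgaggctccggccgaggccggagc
Gsta3, chr1:21240335-21240634, plus strand: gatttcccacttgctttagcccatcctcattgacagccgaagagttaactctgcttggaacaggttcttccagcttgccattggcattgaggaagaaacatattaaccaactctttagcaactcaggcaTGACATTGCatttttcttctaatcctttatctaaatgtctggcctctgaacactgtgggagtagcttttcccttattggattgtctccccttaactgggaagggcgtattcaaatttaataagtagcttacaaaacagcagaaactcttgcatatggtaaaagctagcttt
Gstm7, chr3:107931565-107931864, minus strand: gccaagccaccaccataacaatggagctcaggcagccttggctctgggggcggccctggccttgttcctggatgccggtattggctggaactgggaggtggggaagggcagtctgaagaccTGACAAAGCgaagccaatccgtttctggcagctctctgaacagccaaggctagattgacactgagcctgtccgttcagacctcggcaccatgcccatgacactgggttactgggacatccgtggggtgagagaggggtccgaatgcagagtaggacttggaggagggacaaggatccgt
Sult1d1, chr5:87568957-87569256, minus strand: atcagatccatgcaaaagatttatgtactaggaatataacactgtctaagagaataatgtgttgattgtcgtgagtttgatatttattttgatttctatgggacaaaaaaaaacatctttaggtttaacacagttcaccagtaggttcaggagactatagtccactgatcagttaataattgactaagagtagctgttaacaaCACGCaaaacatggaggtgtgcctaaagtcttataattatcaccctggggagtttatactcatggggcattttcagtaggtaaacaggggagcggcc
Gsta1, chr9:78230419-78230718, plus strand: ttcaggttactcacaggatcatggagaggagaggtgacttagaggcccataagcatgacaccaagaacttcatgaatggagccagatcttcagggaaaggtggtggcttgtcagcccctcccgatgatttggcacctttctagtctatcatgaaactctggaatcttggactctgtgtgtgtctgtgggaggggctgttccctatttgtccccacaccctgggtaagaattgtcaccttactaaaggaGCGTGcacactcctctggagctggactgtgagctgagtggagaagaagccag
In the windows shown, the antioxidant core starts 25 bases before the start site in Abcc4, 121 before it in Gsta3 and 129 before it in Gstm7. Gstm7 has another start site further upstream, in the window chr3:107931768-107932067, which lacks the core. The Gstm7 core shown lies downstream of that start site. Windows of Abca8b, Abcb1a, Abcc10 and Abcc2 and of another start site of Abcc4 hold the same antioxidant core. Of these genes Abca8b and Abcc4 rose, Abcb1a and Abcc10 fell and Abcc2 did not pass. Abca1, Abcb1b, Abcc5 and Abcf2 also rose, and their windows lack the core.

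The supply routes of these families were followed in lists of other genes, whose counts stand beside 17.7% lower and 27.9% higher over all genes. Of 14 genes for the glucuronic acid and sulfate donors, 6 were lower and 1 higher in Apc_KO than in Apc_WT. The PAPS synthase Papss2 averaged 20.9 ± 5.17 FPKM in Apc_KO and 79.2 ± 39.6 in Apc_WT, and Bpnt1, which clears the used sulfate donor, 36.2 ± 6.75 and 110 ± 16.7 FPKM in the same order (SD, n = 4). The beta-glucuronidase Gusb, which removes glucuronic acid, was higher, at 29.4 ± 4.89 FPKM in Apc_KO and 15.5 ± 3.80 in Apc_WT. Of 24 genes of glutathione supply and recycling, 10 were lower and 3 higher. Ggt1 and Dpep1, which break down extracellular glutathione and its conjugates, averaged 2.38 ± 0.902 and 0.878 ± 0.493 FPKM in Apc_KO, against 23.9 ± 15.2 and 10.02 ± 6.33 FPKM in Apc_WT. Oplah, which recycles 5-oxoproline, and Chac1, which degrades glutathione inside the cell, were higher, at 11.5 ± 4.75 and 2.32 ± 1.25 FPKM in Apc_KO against 2.81 ± 0.436 and 0.817 ± 0.645 FPKM in Apc_WT.

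Of 19 regulators of xenobiotic genes, 13 were lower and 1 higher in Apc_KO. The constitutive androstane receptor Nr1i3 averaged 1.10 ± 0.48 FPKM in Apc_KO and 13.7 ± 6.77 in Apc_WT, and the fatty acid receptor Ppara 0.728 ± 0.272 and 8.64 ± 1.14 FPKM. The aryl hydrocarbon receptor Ahr was the 1 that rose, at 15.4 ± 4.59 FPKM in Apc_KO and 6.65 ± 0.984 in Apc_WT (SD, n = 4). Chosen after their values were seen, the liver X receptor Nr1h3 averaged 2.96 ± 0.989 FPKM in Apc_KO and 15.9 ± 3.25 in Apc_WT, and Nfe2l2, which encodes NRF2, 69.8 ± 10.6 and 107 ± 8.61 FPKM. Of 19 known NRF2 targets outside the families, 5 were higher and 3 lower, shares close to those over all genes. Hmox1 and Akr1b8 were higher, at 15.3 ± 6.99 and 16.6 ± 3.94 FPKM in Apc_KO against 3.25 ± 1.48 and 6.02 ± 0.847 FPKM in Apc_WT. Nqo1 and Osgin1 were lower, at 3.99 ± 2.5 and 9.46 ± 2.10 FPKM in Apc_KO against 13.4 ± 2.78 and 19.8 ± 8.42 FPKM in Apc_WT.

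Of 14 uptake and bile acid genes, 10 were lower and 1 higher in Apc_KO. The exception was Slc10a2, the apical bile acid importer, at 16.8 ± 10.7 FPKM in Apc_KO and 0.84 ± 0.511 in Apc_WT (SD, n = 4). The organic anion importer Slco2b1 averaged 1.23 ± 1.38 FPKM in Apc_KO and 27.1 ± 6.54 in Apc_WT, and the cholesterol importer Npc1l1 2.21 ± 0.882 and 38.4 ± 8.66 FPKM. Slc51a, part of the basolateral bile acid exporter and named after its values were seen, averaged 1.06 ± 0.334 FPKM in Apc_KO and 23.5 ± 9.51 in Apc_WT. Of 9 other conjugating and related enzymes, 4 were lower and 2 higher. The epoxide hydrolase Ephx2 and the histamine methyltransferase Hnmt were lower, at 3.74 ± 1.89 and 0.268 ± 0.108 FPKM in Apc_KO against 52.8 ± 13.0 and 1.31 ± 0.302 FPKM in Apc_WT. The sulfurtransferase Tst and the thiopurine methyltransferase Tpmt were higher, at 25.5 ± 7.36 and 24.4 ± 6.12 FPKM in Apc_KO against 6.27 ± 0.923 and 15.2 ± 2.06 FPKM in Apc_WT. The median log2 difference against Apc_WT was -0.19 for the donor list, -0.37 for glutathione supply and -1.11 for the regulators. It was 0.05 for the NRF2 targets, -1.45 for uptake and bile acid genes and -0.59 for the other conjugating and related enzymes, beside 0.12 over all genes. Against Apc_HET the donor list had 4 lower and 2 higher genes, glutathione supply 9 and 2, the regulators 13 and 1, the NRF2 targets 2 and 7, the uptake genes 10 and 1, and the other enzymes 3 and 3, beside 18.9% lower and 22.8% higher over all genes. In Apc_HET against Apc_WT none of the genes in these 6 lists passed in limma.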

How the data were processed

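Values were deposited as FPKM per assembled locus in 1 table per library, per the file headers. Several loci also cover exons of neighbouring genes. Among tools, Cufflinks, Cuffdiff, TopHat and Bowtie are listed in the submitters' processing notes, with mm10 (GRCm38) as the build; versions and annotation are not given in the sources used here. Loci of a symbol were summed, 14082 of 14499 symbols were used, and 295 with loci that differed between tables and 122 with failed estimates were left out. Genes with 1 FPKM in 4 libraries, 12962, were fitted together on log2 of the deposited FPKM plus 1 with limma 3.58.1 in R 4.3.3 (trend, two-sided, Benjamini-Hochberg within a comparison, threshold 0.05); fold changes understate the ratio of low genes. FPKM divides by the library total, so a change in a few abundant RNAs shifts all others, and the absolute depth is unknown. Within a genotype log2 values correlated at 0.913 to 0.981 across genes. The procedure was tested on simulated data. The members and lists were chosen with earlier results of these data known. Values in every library are given for up to 4 called entries per family and direction with a genotype mean of at least 5 FPKM, for the highest entry of each family, for up to 1 further entry per family and direction against Apc_HET, for the 2 smallest p per direction in Apc_HET against Apc_WT, and for 11 efflux pumps; from each other list up to 2 called genes per direction are named. Alternatives were the pseudocount, the level filter, size factors, quantile normalization, 2-genotype fits and a replicate block. Others were the top locus, symbols with differing loci, array weights and each library left out. Added after seeing the data, pairs of Apc_KO libraries were left out. Also added then, loci under 80% of a gene were left out with the joint entries, and so were entries without a library at 1 FPKM in both genotypes. The labels do not say that equal replicate numbers mark paired samples. Of the tested entries, 2 are counted but not reported here.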

Additional observations from a re-analysis of the deposited data

Results flagged for a closer look

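In 10 of 171 groups of 4 libraries, 1 library lay apart from the other 3 by more than Dixon's 95% criterion on log2(FPKM + 1), where chance gives about 1 in 20. In Apc_KO, replicate 1 was high for Abcc1 at 69.7 FPKM, with the others at 62.9 to 63.7 FPKM. It was low for Gstk1 at 5.76 FPKM, beside 18.7 to 21.9 FPKM, for Gstm2 at 4.44 FPKM, beside 8.90 to 10.1 FPKM, and for Gstp1 at 38.3 FPKM, beside 87.3 to 99.3 FPKM. Apc_KO replicate 4 was low for Abcd3 at 36.8 FPKM, beside 43.7 to 44.9 FPKM, and high for the joint entry Gstm1, Gstm3 and Gstm6 at 284 FPKM, beside 137 to 146 FPKM. In Apc_WT, replicate 4 was high for Gsta1 at 256 FPKM, beside 55.5 to 70.4 FPKM, and for Abcg1 at 0.728 FPKM, beside 0.122 to 0.164 FPKM. Apc_WT replicate 3 was high for Gstcd at 11.6 FPKM with the others at 10.6 FPKM, and Apc_WT replicate 2 was low for the Ugt1a6a entry at 0.478 FPKM, with the others above it.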

How the results depend on the processing

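Against Apc_WT, leaving out 1 library at a time gave 10 to 11 higher and 25 to 30 lower entries, and the 15 other alternatives 7 to 12 higher and 24 to 33 lower. Over all 12962 genes, leaving out 1 library gave 3178 to 3803 higher and 2041 to 2478 lower. For the other alternatives the number of genes tested varied, and no all-gene range is given. Against Apc_HET the ranges were 9 to 11 higher and 20 to 27 lower, and 7 to 12 higher and 19 to 27 lower. Over all genes, leaving out 1 library gave 2489 to 3155 higher and 2068 to 2562 lower in that comparison. The count for Apc_HET against Apc_WT was 0 in both directions under all of them, beside at most 15 higher and 19 lower over all genes. Of the calls, 31 of 40 against Apc_WT and 27 of 35 against Apc_HET held in every alternative that tested them, and 0 changed sign. With a replicate block, 10 entries were higher and 32 lower against Apc_WT, and 10 and 24 against Apc_HET. Over all genes the block gave 3467 higher and 2214 lower against Apc_WT, and 2817 and 2361 against Apc_HET. Gsta4, which did not pass against Apc_WT, passed in 8 alternatives, with an adjusted p in limma of 0.0088 under that block to 0.0489 without Apc_HET replicate 4. Deviations of libraries with the same number correlated at -0.195 to 0.18, so the numbers were not taken to pair the samples. Size factors lowered the all-gene median difference against Apc_WT to 0.03 and quantile normalization to -0.02, with 10 higher members each and 32 and 33 lower. Over all genes, 2993 were higher and 2721 lower under size factors, and 2764 and 3043 under quantile normalization. As deposited these counts were 3613 and 2291. Depth is unknown, so no lower limit of detection is given.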
